A study of Mus musculus with 15 samples.

Results

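Lung RNA of mice given silica and then DMSO was set against lung RNA of mice given physiological saline, in 6 of the 15 RNA-seq libraries of the series. The 6 were control 1, 2, 4 and 7 and the libraries labelled silica_DMSO 2 and 5. The silica_DMSO libraries were chosen by a measured value, Rag1 below 1 CPM (counts per 1000000 of the library total). Rag1 encodes a recombinase of immature lymphocytes and marks thymus RNA. It stood at 0.101 CPM in silica_DMSO 2, at 0.146 CPM in silica_DMSO 5 and at 0 to 0.108 CPM in the controls. Silica_DMSO 4 and 6 held 2743 and 2541 CPM of Rag1 and appear below only as a side check. The genes described were those outside the control range in both silica_DMSO libraries, so their distance from the controls was fixed by the choice and is given as a description.

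All groups were C57BL/J mice whose lungs were collected at day 30. Control mice received physiological saline. Silica_DMSO mice received nasal drops of silica in suspension, and DMSO solution on the following day. The silica and DMSO groups, each used below with 3 libraries, received 1 of those agents. A further DMSO library, DMSO 7, held 3876 CPM of Rag1 and was not among those 3. The labels used here give no dose, age or sex, and do not say whether each library came from a separate animal. The p-values therefore measure the spread between these libraries, which may be technical. The extraction notes speak of retinas, whereas the tissue label says lung. The photoreceptor genes Gnat1, Sag and Pde6b reached at most 0.843 CPM in the 6 libraries. Sftpc, the surfactant protein of alveolar type 2 cells, stood at 18378 to 39513 CPM in the controls, at 20439 CPM in silica_DMSO 2 and at 20689 CPM in silica_DMSO 5.

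Inhaled silica crystals are taken up by alveolar macrophages and cannot be broken down. They damage the lysosome, which is known to activate the NLRP3 inflammasome and the release of IL-1. Macrophages then release chemokines that draw neutrophils and monocytes into the lung, and in the longer course fibroblasts lay down collagen. DMSO is a solvent widely used as a vehicle for drugs. In bulk lung RNA, fewer cells of a type and less RNA per cell cannot be told apart.

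The 2 silica_DMSO libraries were unlike each other in their make-up, and this touches every result below. All 15 libraries held 17434653 to 20829923 counts. Genes longer than 3000 bases took 40.0% of the counts in silica_DMSO 2 and 11.5% in silica_DMSO 5, against 24.2%, 39.3%, 44.9% and 35.5% in control 1, 2, 4 and 7. The 85 genes of cytosolic ribosomal proteins, a group chosen after its values were seen, took 3.52% in silica_DMSO 2, 23.9% in silica_DMSO 5 and 3.11% to 8.74% in the controls. Control 1 lay on the side of silica_DMSO 5 in both measures. Across the 16903 genes tested, which are not independent replicates, the log2 ratios to the control mean in silica_DMSO 2 and silica_DMSO 5 had a correlation of -0.05. The ratios of silica_DMSO 5 and control 1 to the mean of the other 3 controls had a correlation of 0.60. Normalised CPM, the scale of the values below unless another is named, divides each library by its effective size. That raised silica_DMSO 5 to 2.03 times its CPM of the library total, took silica_DMSO 2 to 0.824 times, and took the controls to 0.803 to 1.06 times.

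Of the 16903 genes, 1079 (6.38%) stood above the highest control in both silica_DMSO libraries and 865 (5.12%) below the lowest control in both. A further 1278 genes stood outside the range on opposite sides, 670 of them above in silica_DMSO 2 and below in silica_DMSO 5, and 608 the other way round. Taken by itself, silica_DMSO 5 had 5837 genes above and 5975 below the range, and silica_DMSO 2 had 2419 and 2130. With both libraries at least 1.5-fold beyond the nearest control, 246 genes (1.46%) remained above and 93 (0.55%) below. The split depended on the scaling. By CPM of the library total it was 512 above (3.03%) to 1181 below (6.99%), and by the deposited TPM, transcripts per 1000000, 275 (1.63%) to 842 (4.98%). Of the 1079 genes above, 405 were above by library total and 130 by TPM, and of the 865 genes below, 583 and 243 were below. The median length was 2290 bases for the genes above, 2766 bases for those below and 2695 bases for all genes tested. With an offset for gene length in each library, 1400 stood above and 1118 below. Of the 1079 and 865 genes, 817 and 653 were among these.

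**Figure D1:**
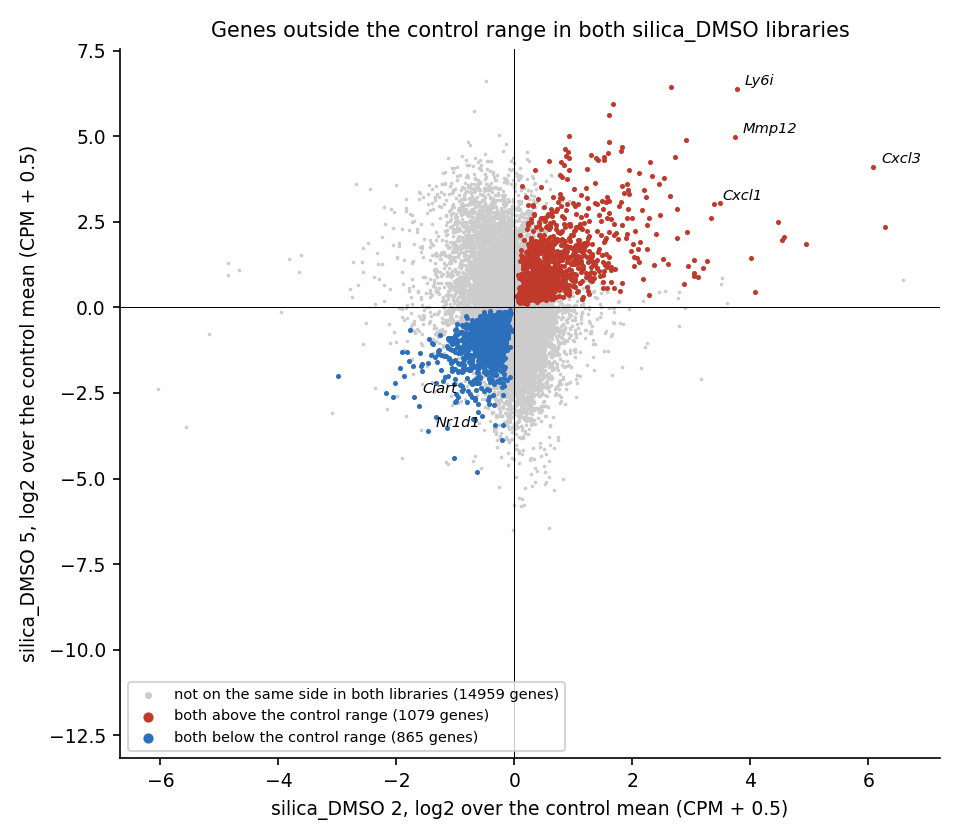
Each point is 1 tested gene, with the log2 ratio of its normalised CPM to the control mean in silica_DMSO 2 (horizontal) and in silica_DMSO 5 (vertical), and colour marks the 1079 genes above and the 865 genes below the control range in both libraries. The cloud has no common slope (correlation -0.05), and the vertical spread is the wider one.

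The quasi-likelihood test of edgeR called no gene higher or lower at an adjusted p under 0.05. At an unadjusted p under 0.05 it gave 1103 genes higher (6.53%) and 107 lower (0.633%), and the smallest adjusted p was 0.133. DESeq2 on the same counts called 153 genes higher (0.905%) and 6 lower (0.0355%). When the silica and DMSO lung libraries were added to the fit, edgeR called 1 gene higher (0.00567%), Mmp12. Without silica_DMSO 2, edgeR called 1297 genes higher and 790 lower with the lone silica_DMSO 5 assumed to vary like the controls, and without silica_DMSO 5 it called 3 higher and 0 lower. The fold changes below are therefore given with their standard errors from edgeR as measurements. DESeq2's calls are given for some genes and lists only, so a gene without a stated call may still have been called.

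At the edge of the range, Gas8 was just inside the set of genes above, with 21.9735 in silica_DMSO 2 and 23.9 in silica_DMSO 5 against 21.9706 in the highest control. Trappc13 was just outside, with 42.6203 in silica_DMSO 2 against 42.6263 in control 2. Sptlc1 was just inside the set below, with 53.7729 in silica_DMSO 2 against 53.7796 in control 2, and Elp3 was just outside, with 41.0034 against 41.0009 in control 1.

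The 12 genes with the widest gap above the controls were Cxcl3, Mmp12, Ly6i, Cxcl1, Clec4d, Ear6, Gpnmb, Clca1, Cxcl5, Slc39a2, Ctsk and Inhba. Cxcl3, a chemokine that attracts neutrophils through CXCR2, stood at 0.056, 0.271, 0.210 and 0.351 normalised CPM in control 1, 2, 4 and 7, at 48.6 in silica_DMSO 2 and at 11.8 in silica_DMSO 5. These are 20 counts over all 4 controls and 1292 over the 2 silica_DMSO libraries. Mmp12, the elastase of macrophages, stood at 4.99, 8.94, 8.64 and 6.97 in the controls, at 104.6 in silica_DMSO 2 and at 245.5 in silica_DMSO 5. Both genes lay far above every control, Cxcl3 higher in silica_DMSO 2 and Mmp12 higher in silica_DMSO 5. The log2 fold change was 7.03 ± 0.74 (SE) for Cxcl3 and 4.56 ± 0.45 for Mmp12, each with an edgeR adjusted p of 0.133 and called by DESeq2 (adjusted p = 2.8e-15 and 2.6e-15).

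Gpnmb, a glycoprotein of lysosome-rich macrophages, stood at 7.17, 17.9, 13.7 and 17.5 in the controls, at 84.3 in silica_DMSO 2 and at 199.1 in silica_DMSO 5 (log2 fold change 3.33 ± 0.49). Ctsk, the collagen-degrading cathepsin K, stood at 27.0, 26.5, 20.3 and 33.9 in the controls, at 138.4 in silica_DMSO 2 and at 388.0 in silica_DMSO 5 (3.29 ± 0.46). Clec4d, a C-type lectin receptor of myeloid cells, stood at 5.99, 4.24, 4.53 and 5.44 in the controls, at 34.2 and at 52.6 (3.10 ± 0.33). The groups did not overlap for any of these 3. Clca1, a secreted protein of goblet cells, stood at 0.448, 0.813, 0.420 and 0.219 in the controls, at 9.33 in silica_DMSO 2 and at 5.52 in silica_DMSO 5 (3.95 ± 0.57). Inhba, the activin A subunit, stood at 1.23, 1.35, 1.80 and 1.53 in the controls, at 9.99 and at 8.28 (2.62 ± 0.37). The zinc transporter gene Slc39a2 stood at 0.965 to 1.49 in the controls, at 7.67 and at 9.76 (2.87 ± 0.39). Ear6, an eosinophil-associated ribonuclease with near-identical relatives, and Ly6i, of the clustered Ly6 family, are uncertain because reads can be split between copies. Ear6 was at 0.0839 to 0.226 in the controls and at 3.11 and 7.59, and Ly6i at 5.45 to 11.5 and at 112.7 and 693.1. DESeq2 called all 12, with edgeR adjusted p of 0.133 to 0.278. By CPM of the library total all 12 lay above the controls, and by TPM 11 did, all but Inhba. The 12 were picked by their gap in these same libraries, so these calls and positions are no separate support.

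**Figure D2:**
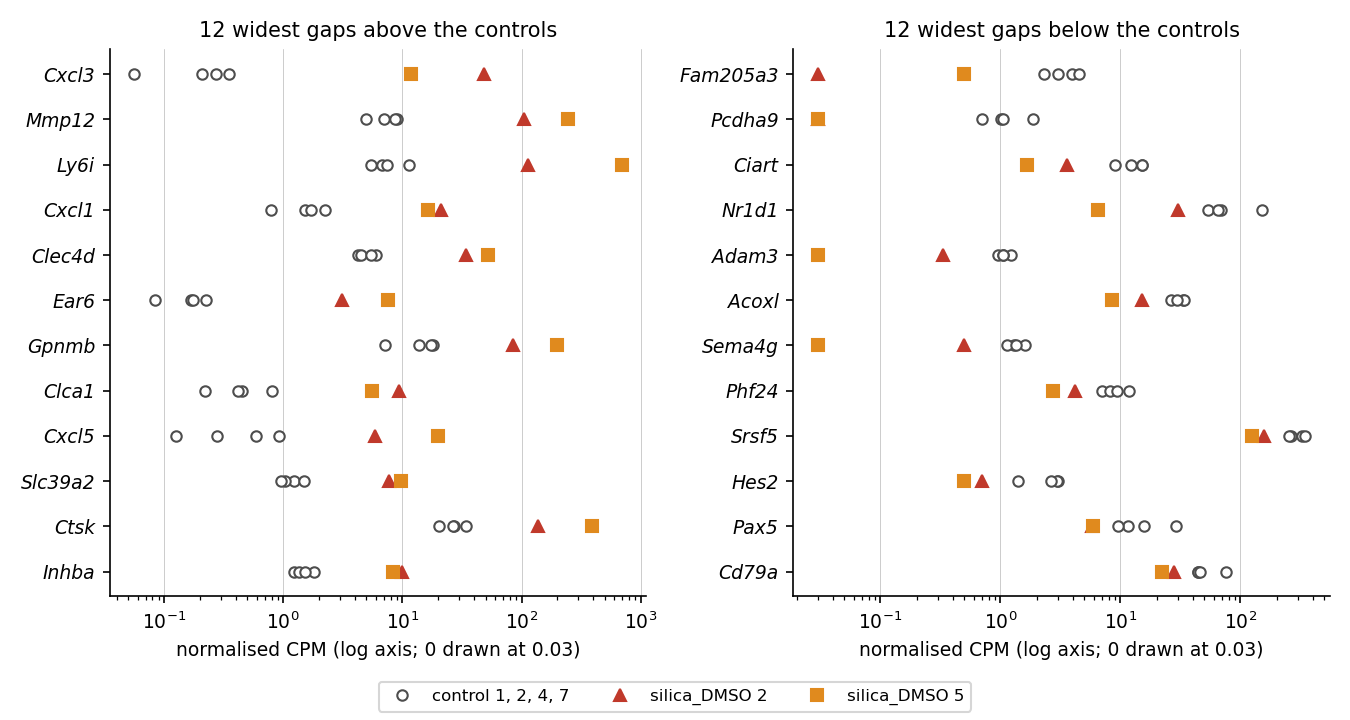
Normalised CPM on a log axis in each of the 4 control and 2 silica_DMSO libraries for the 12 genes with the widest gap above and the 12 with the widest gap below the control range. In each gene of the upper set both silica_DMSO points lie above the 4 control points and in the lower set below them, as the choice of the genes requires, and a value of 0 is drawn at the left edge.

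Of the 38 gene lists, chemokines and cytokines had the highest median. Of the 28 chemokine and cytokine genes tested out of 30 listed (Cxcl11 and Csf3 had too few counts), 20 stood above the control range in both libraries and none below, beside 6.38% and 5.12% of all genes tested. These shares of all genes also belong beside each later list count by normalised CPM in both silica_DMSO libraries. Genes with low control counts, such as Cxcl3, entered the test through the silica_DMSO libraries, and such genes had to be higher there. DESeq2 called 14 of the 28 higher. The median log2 fold change was 2.88, against -0.04 for all genes. By library total 17 stood above and by TPM 13, with none below by either. The median log2 ratio was 1.45 for silica_DMSO 2 against control 2, 4 and 7, and 2.82 for silica_DMSO 5 against control 1 alone.

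Among the neutrophil attractants, Cxcl1 stood at 0.784, 1.54, 1.72 and 2.24 in the controls, at 21.2 in silica_DMSO 2 and at 16.3 in silica_DMSO 5 (log2 fold change 3.57 ± 0.45). Cxcl5 stood at 0.280, 0.587, 0.126 and 0.921 in the controls, at 5.93 and at 19.9 (4.73 ± 0.79). Cxcl2 was the exception, at 0.448 to 6.42 in the controls, 294.8 in silica_DMSO 2 and 4.83 in silica_DMSO 5, so that 1 of the 2 libraries lay within the control range. Among the monocyte attractants, which act through CCR2, Ccl2 stood at 0.896, 0.542, 1.26 and 1.62 in the controls, at 7.30 and at 29.6 (4.08 ± 0.64), and Ccl7 at 0.952 to 1.71, at 5.68 and at 44.6 (4.32 ± 0.73). Both were higher in silica_DMSO 5. Ccl3, which acts through CCR1, went the other way, with 0.896 to 3.44 in the controls, 48.6 in silica_DMSO 2 and 12.02 in silica_DMSO 5 (4.14 ± 0.71). By TPM silica_DMSO 2 lay above the controls and silica_DMSO 5 within their range. Ccl6 and Ccl9, chemokines of myeloid cells, stood at 102.7 to 187.8 and 24.4 to 34.2 in the controls, at 431.6 and 87.2 in silica_DMSO 2 and at 3196 and 599.2 in silica_DMSO 5. Cxcl9, a ligand of CXCR3 induced by interferon-gamma, stood at 2.18 to 3.52 in the controls, at 11.6 and at 30.8 (3.002 ± 0.46).

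The upstream sequences of 2 of these chemokine genes are shown because the genes lay among the 12 widest gaps and both hold a match to the NF-kB motif, a binding site of the transcription factor that drives many inflammatory genes. They are the 150 bases before the transcription start in the RefSeq promoter table, build GRCm38.p6, written 5′ to 3′ on the strand of the gene. Cxcl3 is at chr5:90785951-90786100 and Cxcl1 at chr5:90891095-90891244, both on the + strand. Capitals mark matches, on either strand, to GGGA and CC with any 4 bases between them, and overlapping matches are joined.
Cxcl3: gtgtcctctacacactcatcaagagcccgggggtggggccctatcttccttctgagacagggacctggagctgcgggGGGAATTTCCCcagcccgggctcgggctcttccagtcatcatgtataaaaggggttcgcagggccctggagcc
Cxcl1: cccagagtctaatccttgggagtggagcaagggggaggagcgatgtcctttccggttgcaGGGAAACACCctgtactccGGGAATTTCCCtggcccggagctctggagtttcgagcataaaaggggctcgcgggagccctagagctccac
Each holds the joined match GGGAATTTCCC, beginning at position -73 from the start in Cxcl3 and -71 in Cxcl1, and Cxcl1 holds a further match at -90. Within 250 bases before the start, 7 of the 14 chemokine genes above the range that are in the table held the motif, against 19.67% of all 27025 genes in it. A match is a description of the letters and not of binding.

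**Figure D3:**
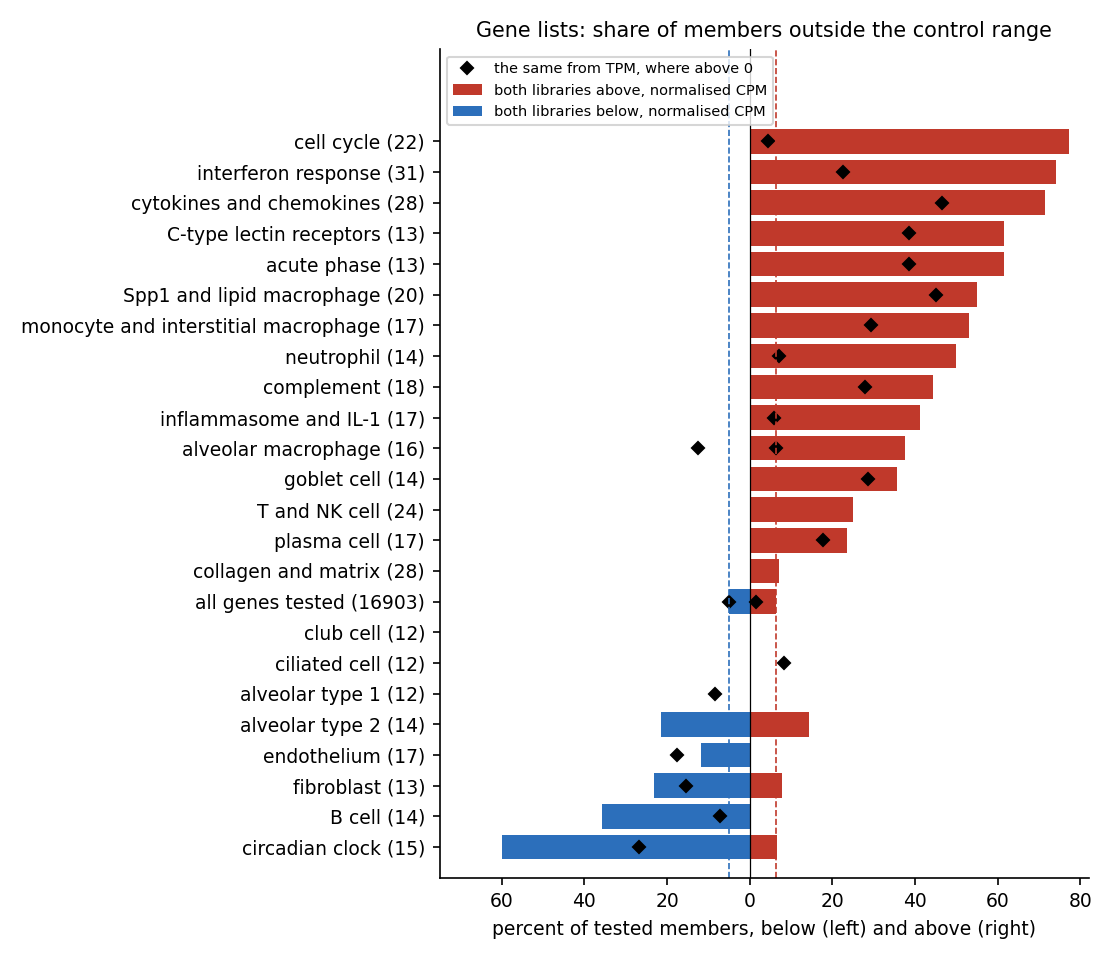
For each gene list, the share of its tested members above (right) and below (left) the control range in both silica_DMSO libraries, with the shares of all genes tested (6.38% and 5.12%) as lines. Black diamonds give the same shares by TPM, and the shares above are smaller by TPM in each plotted list from cell cycle to plasma cells.

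Macrophage genes were read in lists for lipid handling and lysosomes, for resident alveolar macrophages and for monocytes. Of 20 genes of lipid-handling, Spp1-expressing macrophages, 11 stood above the range and none below, and DESeq2 called 6 higher. The median log2 fold change was 1.70, and 11 stood above by library total and 9 by TPM. Spp1, the secreted matrix protein osteopontin, stood at 67.9, 106.0, 34.0 and 51.7 in the controls, at 230.1 in silica_DMSO 2 and at 768.5 in silica_DMSO 5 (2.94 ± 0.60). Trem2, a lipid-sensing receptor, stood at 8.29, 4.79, 3.86 and 4.43 in the controls, at 10.2 and at 124.5 (3.65 ± 0.82). The 2 silica_DMSO libraries thus differed widely in Trem2, and silica_DMSO 2 lay close to control 1. Msr1, a scavenger receptor that takes up silica, stood at 2.18 to 4.43 in the controls, at 17.1 and at 27.5 (2.69 ± 0.39).

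Of 16 alveolar macrophage genes tested, 6 stood above the range and none below, with a median of 0.69. By library total 5 stood above and 2 below, and by TPM 1 above and 2 below. Marco, the scavenger receptor of alveolar macrophages, stood at 15.3, 14.9, 11.2 and 11.4 in the controls, at 35.7 and at 109.7 (2.46 ± 0.45), and was the one above by TPM. Of 17 genes of monocytes and interstitial macrophages, 9 stood above and none below, among them the complement genes C1qb (29.1 to 45.0 in the controls, 88.6 in silica_DMSO 2 and 429.9 in silica_DMSO 5) and C1qc. Of 13 myeloid C-type lectin receptors, 8 stood above and none below. Clec7a, the beta-glucan receptor dectin-1, stood at 37.3 to 44.9 in the controls, at 97.8 and at 692.9 (3.26 ± 0.65), and Clec4n, dectin-2, at 7.68 to 14.7, at 39.3 and at 367.0 (4.02 ± 0.76). Clec4e, the receptor Mincle, was at 1.34 to 14.4 in the controls and higher in silica_DMSO 2 (49.2) than in silica_DMSO 5 (29.7).

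Of 14 neutrophil genes tested, 7 stood above and none below, though only Lcn2 did so by TPM. S100a8, a calcium-binding protein that fills the neutrophil cytosol, stood at 37.2, 22.1, 31.3 and 33.0 in the controls, at 117.2 in silica_DMSO 2 and at 192.6 in silica_DMSO 5 (2.33 ± 0.35). Of 13 acute-phase genes, 8 stood above and none below. Saa3, a serum amyloid A protein of macrophages and epithelium, stood at 20.7, 3.93, 3.52 and 7.67 in the controls, at 58.8 in silica_DMSO 2 and at 816.9 in silica_DMSO 5 (5.61 ± 1.11). Lcn2, the iron-siderophore binder lipocalin-2, stood at 101.4 to 183.4 in the controls, at 522.3 and at 1452 (2.79 ± 0.52). Of 18 complement genes 8 stood above, among them Cfb (48.1 to 60.9 in the controls, 162.4 and 245.4) and the C3a receptor gene C3ar1 (4.71 to 6.91, 19.7 and 56.9).

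The inflammasome gene itself differed between the 2 silica_DMSO libraries. Nlrp3, the sensor activated by crystals, stood at 1.18, 3.16, 7.17 and 3.25 in the controls, at 36.9 in silica_DMSO 2 and at 0.493 in silica_DMSO 5, above the range in one library and below it in the other (2.34 ± 1.20, edgeR adjusted p = 0.703). Of the 17 genes of the inflammasome and the IL-1 family, 7 stood above and none below, and by library total only Il1rn, Casp1 and Casp4 did. Il1b stood at 8.57, 12.8, 24.9 and 14.9 in the controls, at 66.4 and at 42.7 (1.83 ± 0.45). Il1rn, the antagonist of the IL-1 receptor, stood at 4.99, 7.99, 9.44 and 6.403, at 51.3 and at 31.05 (2.51 ± 0.38), and the decoy receptor gene Il1r2 at 1.13 to 1.58, at 16.9 and at 3.75 (2.89 ± 0.58). All 3 were higher in silica_DMSO 2 than in silica_DMSO 5. By TPM only 1 of the 17 genes stood above in both libraries. On that scale silica_DMSO 5 was within the control range for Il1b and Il1rn. For Il1r2 it was below the range, at 0.9 against 1 to 1.89. DESeq2 called Il1rn and Il1r2 and not Il1b, whose adjusted p was 0.054.

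Interferon-induced genes stood above the range in 23 of 31 cases and below in none, with a median log2 fold change of 1.03. This list was sensitive to the scaling, since 9 stood above by library total and 7 by TPM (Irf7, Isg15, Oas1a, Ifi27l2a, Bst2, Xaf1 and Zbp1). DESeq2 called 7 higher. Irf7, the transcription factor that amplifies type I interferon, stood at 22.6, 16.1, 25.1 and 15.9 in the controls, at 77.7 in silica_DMSO 2 and at 327.8 in silica_DMSO 5 (3.35 ± 0.55). Isg15, a ubiquitin-like modifier, stood at 14.1, 8.67, 8.52 and 8.46, at 26.8 and at 215.3 (3.60 ± 0.71). Oas1a, a sensor of double-stranded RNA in a cluster of similar genes, stood at 11.4 to 15.7, at 40.4 and at 308.5 (3.73 ± 0.68). Ifi44, a gene induced by type I interferon, was nearly alike in both libraries, with 9.13 to 10.3 in the controls, 34.2 in silica_DMSO 2 and 40.3 in silica_DMSO 5 (1.94 ± 0.28). By TPM silica_DMSO 2 (17.1) lay above the controls (1.99 to 5.13) and silica_DMSO 5 (3.28) within their range.

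The upstream sequences of Isg15 and Oas1a are shown because they hold the interferon-stimulated response element (ISRE), the known binding site of interferon-activated factors. They are the 150 bases before the start from the same RefSeq table and build, on the strand of the gene. Isg15 is at chr4:156200819-156200968 and Oas1a at chr5:120907526-120907675, both on the - strand. Capitals mark matches, on either strand, to TTTC repeated after any 2 bases, and here they read as the reverse complement, with GAAA in place of TTTC.
Isg15: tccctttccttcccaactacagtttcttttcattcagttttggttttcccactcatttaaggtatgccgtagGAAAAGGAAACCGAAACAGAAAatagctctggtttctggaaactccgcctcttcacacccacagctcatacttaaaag
Oas1a: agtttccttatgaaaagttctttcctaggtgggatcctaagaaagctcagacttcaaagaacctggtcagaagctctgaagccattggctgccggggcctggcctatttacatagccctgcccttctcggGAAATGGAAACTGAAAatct
Both hold overlapping matches, 3 in Isg15 and 2 in Oas1a. The motif was within 250 bases before the start in 11 of the 16 interferon-induced genes above the range that are in the table, against 3.463% of all 27025 genes. It was chosen as the known site of a group already seen to be higher.

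Cell cycle genes stood above the range in 17 of 22 cases and below in none. Mki67, the proliferation antigen, stood at 11.8, 14.6, 14.6 and 8.86 in the controls, at 31.6 in silica_DMSO 2 and at 34.2 in silica_DMSO 5 (1.40 ± 0.32). Rrm2, a subunit of ribonucleotide reductase, stood at 6.16, 6.32, 7.59 and 6.18, at 16.5 and at 21.5 (1.53 ± 0.31). Cdk1, the kinase of mitotic entry, stood at 2.62 to 4.87, at 10.2 and at 12.1 (1.53 ± 0.37). The median was 1.21 and DESeq2 called 6 higher. By library total 7 of the 22 stood above and by TPM 1 (Birc5), and the summed level was 200.4 to 263.7 CPM of the library total in the controls, 439.7 in silica_DMSO 2 and 243.6 in silica_DMSO 5. On that scale the sum of silica_DMSO 5 lay within the controls.

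Goblet cell and mucus genes gave 5 of 14 above and none below. Besides Clca1 these included Agr2, a chaperone of mucin folding, at 0.570 to 1.57 in the controls, at 2.20 in silica_DMSO 2 and at 21.2 in silica_DMSO 5 (3.48 ± 0.82), and the anion transporter gene Slc26a4, at 1.62 to 2.46, at 9.54 and at 18.9 (2.73 ± 0.41). Of 12 genes each of club cells, ciliated cells and alveolar type 1 cells, none stood outside the range on the same side in both libraries. Of 14 alveolar type 2 genes, 2 stood above and 3 below by the normalised CPM and by library total, and none by TPM. These are 14.3% and 21.4%, against 6.38% and 5.12% of all genes tested by normalised CPM. Sftpb, a surfactant protein, was below at 1861 and 1003 against 2076 to 3437 in the controls, and Sftpd, a collectin, above at 1162 and 3295 against 370.3 to 864.0.

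Collagen and matrix genes differed between the 2 silica_DMSO libraries. Of 28, 2 stood above in both (7.14%, near the 6.38% of all genes tested) and none below in both, with a median of -0.01. By library total and TPM none stood outside on the same side in both. In silica_DMSO 2, 6 stood above and 0 below, and in silica_DMSO 5, 3 above and 11 below. The median length of the 28 genes was 5260 bases, against 2695 bases for all genes tested. With the offset for gene length, 5 stood above in both and none below in both, with a median of 0.16. The part of the low long-gene share of silica_DMSO 5 in these values was not tested. Col1a1, the main chain of type I collagen, stood at 85.8, 56.5, 163.7 and 99.4 in the controls, at 156.2 in silica_DMSO 2 and at 24.8 in silica_DMSO 5 (-0.16 ± 0.73). Col3a1 stood at 106.7, 98.6, 224.6 and 198.5, at 331.9 and at 442.3 (1.30 ± 0.45), above the controls in both libraries on the normalised scale. By TPM silica_DMSO 2 (92.9) was above the controls (11.6 to 77.8) and silica_DMSO 5 (17.99) within their range, and the same held by library total. Fn1, fibronectin, had a log2 fold change of 0.46 ± 0.54 and Acta2, smooth muscle actin, of -0.48 ± 0.46, with both libraries within the control range. Tgfb1 (-0.34 ± 0.36) was within the range in silica_DMSO 2 and below it in silica_DMSO 5 (34.2 against 53.7 to 73.0). The protease inhibitor gene Timp1 (1.62 ± 0.83) was within the range in silica_DMSO 2 and above it in silica_DMSO 5 (36.9 against 2.75 to 15.96). Tnf was above on the normalised scale, at 4.73 and 5.72 against 0.746 to 3.43 (1.59 ± 0.62). By TPM silica_DMSO 2 (4.08) was above the controls (0.56 to 2.77) for Tnf and silica_DMSO 5 (0.9) within their range. Il6 was near its detection limit, at 0 to 1.01 in the controls and at 0.705 and 1.48. With a standard error of 0.73, changes in Col1a1 of the size seen for Col3a1 were not detectable here. Of 16 matrix proteases and inhibitors 3 stood above, namely Mmp12, Mmp19 and the collagenase gene Mmp13 (0.722 to 1.47 in the controls, 11.9 and 3.45), and 1 below, Timp2. By library total and by TPM only 1 of the 16, Mmp12, stood above and none below. By TPM silica_DMSO 5 (0.31) was within the controls (0.21 to 0.85) for Mmp13. Of 16 genes of the Nrf2 response, iron and metallothioneins 4 stood above, among them Hmox1, heme oxygenase, at 15.5 to 31.7 in the controls, at 52.4 and at 45.1 (0.94 ± 0.36). By library total 2 of the 16 stood above and 1 below, and by TPM 3 and 1. Hmox1 was not outside the range in both libraries by library total, by TPM or with the offset for gene length. The cystine transporter gene Slc7a11 stood at 1.90 to 6.50, at 33.3 in silica_DMSO 2 and at 7.29 in silica_DMSO 5. By TPM silica_DMSO 5 (0.18) lay below the controls (0.25 to 0.86) for this gene.

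Below the controls, clock genes were the list with the largest share, 9 of 15 below (60%, against 5.12% of all genes tested) and 1 above. By library total 7 stood below and by TPM 4 (Per1, Nr1d1, Dbp and Ciart). The circadian clock runs on activators, BMAL1 (encoded by Arntl) and CLOCK, which switch on their own repressors through E-boxes. Nr1d1, the repressor REV-ERB alpha, stood at 68.9, 54.1, 151.1 and 65.3 in the controls, at 30.3 in silica_DMSO 2 and at 6.51 in silica_DMSO 5 (-2.20 ± 0.75). Ciart, a repressor of the clock, stood at 15.2, 8.94, 15.1 and 12.2, at 3.61 and at 1.68 (-2.26 ± 0.48), and DESeq2 called it lower (adjusted p = 0.0016). Dbp, a clock output factor, stood at 194.0, 69.3, 156.1 and 108.7, at 34.7 and at 53.6 (-1.58 ± 0.51). Arntl, the activator, was the one gene above, at 1.23 to 3.30 in the controls, at 5.18 and at 4.63 (1.02 ± 0.49). By library total and TPM only silica_DMSO 2 lay above the controls. The labels used here give no hour of collection, and its part in these values was not tested.

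The sequence before Ciart is shown because it holds the canonical E-box CACGTG, in capitals, 3 times within 150 bases, at chr3:95882229-95882378 on the - strand of GRCm38.p6 from the RefSeq table. The motif reads alike on both strands.
Ciart: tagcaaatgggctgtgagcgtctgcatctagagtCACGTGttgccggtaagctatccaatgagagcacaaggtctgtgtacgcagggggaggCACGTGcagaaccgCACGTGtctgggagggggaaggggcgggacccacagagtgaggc
The motif was within 250 bases before the start in 3 of the 8 clock genes below the range that are in the table, against 6.86% of all 27025 genes. It too was chosen after the values were seen.

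The other genes with the widest gap below were scattered over functions. Pcdha9, a protocadherin that shares exons with its cluster, had 100 counts over the 4 controls and 0 in both silica_DMSO libraries, which is at least 17.8-fold lower against a floor of 3 counts over the group. Fam205a3, of a family of near-identical copies, had 299 counts over the controls and 5 in silica_DMSO. Acoxl, an acyl-CoA oxidase-like gene, stood at 33.4, 26.6, 33.9 and 29.5 in the controls, at 15.1 and at 8.48 (-1.38 ± 0.37). Srsf5, a splicing factor, stood at 263.8, 327.4, 347.7 and 252.6, at 157.0 and at 125.8 (-1.08 ± 0.37). Of the 12 widest, DESeq2 called 4 (Fam205a3, Pcdha9, Ciart and Acoxl), 12 lay below by library total and 7 by TPM. These 12 too were picked by their gap in the same libraries.

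B cell genes were lower in both libraries for 5 of 14 (35.7%, against 5.12% of all genes tested), with none above. By library total 6 stood below and by TPM 1. Cd79a, a signalling chain of the B cell receptor, stood at 44.0, 44.1, 76.0 and 46.1 in the controls, at 27.8 and at 22.1 (-1.07 ± 0.38). Pax5, the B cell identity factor, stood at 11.7, 15.6, 29.0 and 9.60, at 5.85 and at 5.91 (-1.48 ± 0.53), and Ighd at 25.4 to 83.1, at 16.2 and at 14.7 (-1.69 ± 0.53). DESeq2 called none of the 14. Among 17 plasma cell and immunoglobulin genes, 4 stood above and none below, with Ighg2b at 25.3 to 213.7 in the controls, at 575.4 and at 397.8, and Mzb1 at 7.43 to 17.6, at 19.1 and at 116.8. Of 24 T and NK cell genes 6 stood above and none below, but none by TPM.

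Summed levels of other cell types differed as well, and their part in these results was not tested. Summed over 14 B cell genes, CPM of the library total was 205.9 to 554.2 in the controls, 201.8 in silica_DMSO 2 and 115.0 in silica_DMSO 5. Summed over 13 heart muscle genes it was 228.2 to 596.0 in the controls, 262.8 and 81.2. Of these genes 2 stood below the range (15.4%, against 5.12% of all genes tested) and none above. Over 10 mesothelial genes the sum was 332.7 to 614.0, 321.8 and 224.1, with 1 below. Over 10 genes of red blood cells it was 1191 to 13120, 1677 and 15220, with none of the 9 tested outside the range on the same side in both libraries. Over 16 neutrophil genes it was 275.1 to 406.8, 1238 and 1032, and over 30 chemokine genes 456.9 to 520.9, 1636 and 2499. Thymocyte genes summed to 49.3 to 114.6 CPM in the controls, 99.3 and 45.1, with Rag2 at 0 in all 6 libraries, and thymic epithelium genes to at most 7.91, with Foxn1 at 0.

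The silica and DMSO lung libraries, 3 of each, share no library with the comparison above and allow the same genes to be read again. Here too edgeR called no gene at an adjusted p under 0.05 (386 genes, 2.39%, at an unadjusted p under 0.05), and DESeq2 called 30 higher in silica (0.186%) and 4 lower (0.0248%). The 1079 genes above the control range had a median log2 ratio of silica to DMSO of 0.13, and 57.8% of the 1053 tested were above 0, against a median of -0.02 and 49.0% for all genes. In 16.2% of them all 3 silica libraries lay above all 3 DMSO libraries, against 3.93% of all genes, and in 3.15% of all genes they lay below. For the 246 genes at least 1.5-fold above, the median was 0.70, with 73.6% above 0 and 29.7% without overlap. The 865 genes below had a median of 0.00. Long-gene shares of the DMSO and silica libraries ranged from 12.4% to 42.8%, and their part in these shares was not tested.

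**Figure D4:**
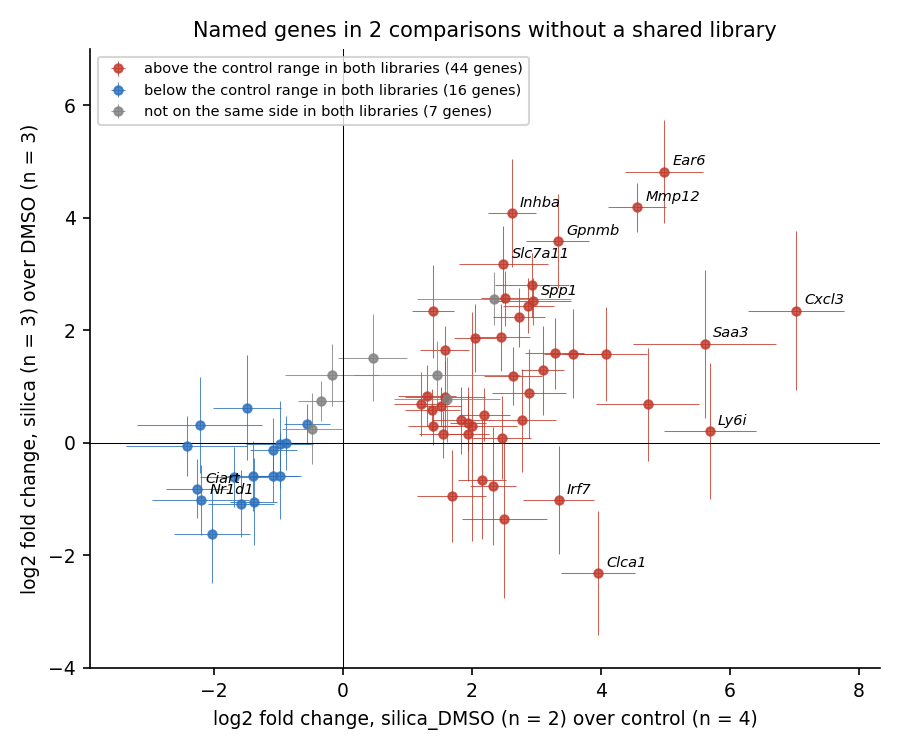
Log2 fold change of silica_DMSO over control (horizontal) against silica over DMSO (vertical) for 67 named genes tested in both, coloured by their side of the control range, with standard errors as bars. Of the 44 genes above the range 38 are also higher in silica than in DMSO, and of the 16 below 12 are also lower. These are chosen genes. Over all 1053 tested genes above the range 57.8% are higher in silica, and over all 782 tested genes below it 50.3% are higher.

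Among macrophage genes in that second comparison, Mmp12 stood at 234.3, 211.0 and 185.9 normalised CPM, scaled over the 12 lung libraries, in silica 1, 2 and 7 and at 16.2, 11.7 and 6.59 in DMSO 1, 4 and 6. Its log2 ratio was 4.19 ± 0.43, and in the fit of 12 lung libraries it was the only gene called by edgeR (adjusted p = 0.025, 0.00567% of the genes). DESeq2 called 11 of the 104 named genes tested, all higher in silica: Mmp12, Ear6, Gpnmb, Slc39a2, Inhba, Il1rn, Mmp13, Slc7a11, Slc26a4, Spp1 and Nlrp3. Over all genes tested it called 0.186% higher and 0.0248% lower. Many of the 104 were chosen by their values in the silica_DMSO comparison or after values were seen. Of the 20 lipid-handling macrophage genes, all 3 silica libraries lay above all 3 DMSO libraries in 10, with a median of 0.94. The same held for 9 of 22 cell cycle genes, with a median of 0.75, and 7 of 28 matrix genes, with a median of 0.87. Over all genes this share was 3.93%. By the other rule, 2 silica_DMSO libraries beyond 4 controls, 2 of the 28 matrix genes stood above (6.38% of all genes), or 5 with the offset for gene length. The 7 were counted without that offset, so the counts of the 2 rules are not measured alike.

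Interferon-induced, mucus and clock genes had medians near or below 0 there, or overlapped. The 31 interferon-induced genes had a median log2 ratio of silica to DMSO of 0.22, with 2 of them without overlap, and Irf7 was at 22.2, 72.1 and 35.04 in silica and at 24.9, 212.1 and 22.0 in DMSO, where DMSO 4 is a library with few counts from long genes (12.4%). The 14 goblet genes had a median of -1.38, and Clca1 was at 12.4, 8.17 and 7.71 in silica and at 28.7, 108.5 and 2.74 in DMSO. The 15 clock genes had a median of -0.02, and Nr1d1 was at 17.6, 22.8 and 37.4 in silica and at 31.8, 23.3 and 101.7 in DMSO. The silica and DMSO libraries overlapped for all 3 named genes.

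**Figure D5:**
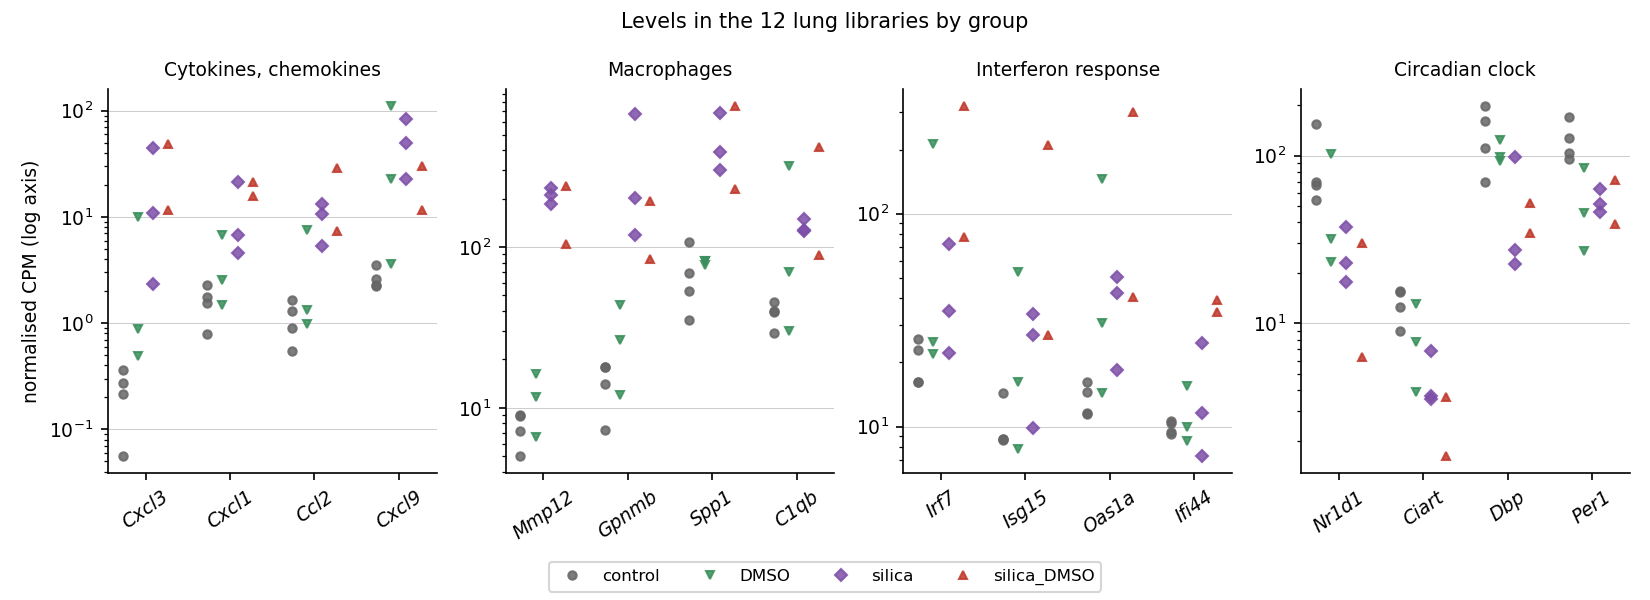
Normalised CPM scaled over the 12 lung libraries, on a log axis, in each control, DMSO, silica and silica_DMSO library for selected genes. Mmp12 is at 105.0 or more in the silica and silica_DMSO libraries and at 16.2 or less in the control and DMSO libraries, while Irf7 is also high in DMSO 4 and Nr1d1 is lowest in silica_DMSO 5.

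Among genes with a mean of at least 10 normalised CPM, 4 each way were picked for the widest difference between the 2 silica_DMSO libraries. Higher in silica_DMSO 5 were the ribosomal protein gene Rpl39 (94.8 to 433.6 in the controls, 118.1 in silica_DMSO 2 and 5327 in silica_DMSO 5) and mt-Nd3, a subunit gene of the mitochondrial genome (101.6 to 892.6, 79.3 and 3785). The highest control was control 1 for both. Higher in silica_DMSO 2 were C7, a complement component made by stromal cells (2.74, 162.9, 311.6 and 180.1 in the controls, 247.3 and 1.38), and the transcription factor gene Zbtb16 (17.0 to 89.1, 76.3 and 0.690). For C7, control 1 again lay with silica_DMSO 5 and the other 3 controls with silica_DMSO 2. Inflammatory genes could differ widely too, as did the chemokine gene Cxcl2 with 294.8 in silica_DMSO 2 and 4.83 in silica_DMSO 5.

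The libraries labelled silica_DMSO 4 and 6 did not match the lung libraries. Their summed thymocyte genes reached 8432 and 9929 CPM of the library total, and Sftpc 788.9 and 107.8 CPM. Mmp12 stood at 10.3 and 4.07 CPM there and Irf7 at 120.3 and 76.7. Mki67 stood at 197.2 and 188.6 CPM. With all 4 silica_DMSO libraries required to lie outside the control range on the same side, on values scaled over all 15 libraries, 545 genes stood above and 537 below, and 543 and 528 of these were among the 1079 and 865 genes found with the scaling over 6 libraries.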

How the data were processed

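RNA-seq of lung was read from the deposited gene tables. Per the file headers, one table holds expected counts per gene and library and the other TPM with a gene length in bases, both made by the authors; 8 columns of group means were not used. Bowtie 0.12.2 and build mm8 stand in the submitters' processing notes, and what program made the estimates is not given in the sources. Of 57010 gene IDs, 52029 (91.3%) are in the GENCODE M21 names. Groups came from the labels. The members and gene lists were chosen with earlier results of these data known, and some genes are not reported here.

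Rounding the expected counts to whole numbers moved no total by more than 53.9. filterByExpr (minimum count 10, total 15, by group) left 16903 genes, and 16130 for silica against DMSO. The quasi-likelihood test of edgeR 4.0.16 (R 4.3.3, TMM scaling) was fitted on the 2 silica_DMSO and 4 control libraries, with Benjamini-Hochberg adjustment over all genes and a threshold of 0.05. The standard error is the log2 fold change divided by the square root of F. The biological coefficient of variation was 0.516. Log2 ratios of single libraries used a prior of 0.5 CPM. A gene was outside the range when both silica_DMSO libraries lay beyond the 4 controls. DESeq2 1.42.0 and limma 3.58.1 on log2(TPM + 1) or log2(TPM + 0.1), other scalings, filters, left-out libraries, a length offset and a replicate block were alternatives. The fits were tested on simulated data. Python 3.11.15 with pandas 2.3.3 and matplotlib 3.10.9 made the descriptions and plots.

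Genes were named by rule: the 12 widest gaps above and below the range with a mean of at least 1 CPM, 2 genes from each list with at least 3 members outside it, 4 genes each way with the widest difference between the silica_DMSO libraries, and 12 genes of fibrosis and inflammation. Further genes (such as Isg15, Oas1a, Cxcl2, Trem2, Clec7a and Arntl), the ISRE and E-box motifs and the edge genes were added after their values were seen. Counting error is small beside the spread between libraries except in genes with few counts.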

Additional observations from a re-analysis of the deposited data

Results flagged for a closer look

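Among the 4 controls, 14 of the 110 values checked, all of them named genes, had 1 library far from the other 3, judged by its gap to the nearest library over the range of the 4. Chance flags about 1 in 20 groups (5.0%), and the genes are not independent because the same library is involved. Control 4 stood apart for Nr1d1 (0.847; 151.1 normalised CPM against 54.1 to 68.9), Cd79a (0.932), Fcgr1 (0.917), Col13a1 (0.917), Rrm2 (0.888), Fn1 (0.862; 395.5 against 116.3 to 154.8) and Ccl3 (0.855), in each case on the high side. It stood apart on the low side for Clec4n (0.833; 7.68 against 13.6 to 14.7). Control 1 stood apart on the high side for Cry2 (0.975; 107.3 against 59.2 to 60.5), Isg15 (0.964; 14.1 against 8.46 to 8.67), Ccdc152 (0.971), mt-Nd3 (0.945), Rps12l1 (0.932) and Rpl39 (0.841). Control 4 had the highest share of counts from genes over 3000 bases among the controls (44.9%) and control 1 the lowest (24.2%), and the part of these shares in the flagged values was not tested.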

How the results depend on the processing

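The number of genes called between silica_DMSO and control depended on the tool and the library. With edgeR 0 were higher and 0 lower, with DESeq2 153 and 6, without a filter on low counts 16 and 0, and in the fit of 12 lung libraries 1 and 0. Leaving out 1 library at a time gave 0 to 1297 higher and 0 to 790 lower. The largest counts came without silica_DMSO 2, where the lone silica_DMSO 5 is assumed to vary like the controls; without silica_DMSO 5 the counts were 3 and 0, and without any 1 control 0 and 0. Between silica and DMSO, DESeq2 called 30 higher and 4 lower, and the fit of 12 lung libraries 1 and 0. With the replicate number as a block edgeR called 0 genes in either direction (12 lung libraries or all 15). Control and silica_DMSO lung libraries share only number 2, so this replicate block rests on few libraries and its numbers are not known to pair animals.

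Genes outside the control range numbered 1079 above and 865 below. The count above was 512 by CPM of the library total and 275 by TPM (1181 and 842 below). It was 246 above and 93 below at least 1.5-fold beyond the nearest control, and 545 and 537 with all 4 silica_DMSO libraries scaled over 15 libraries. Leaving out 1 library gave 1296 to 5837 above and 1072 to 5975 below. By library, this was 1932 and 1711 without control 1, 5837 and 5975 without silica_DMSO 2, and 2419 and 2130 without silica_DMSO 5. The count below without control 7 was 1335. Without both control 1 and silica_DMSO 5, an alternative added after seeing the data, it was 3470 and 3167. The median log2 fold change of all genes was -0.04 by edgeR, -0.53 on log2(TPM + 1) and -0.83 on log2(TPM + 0.1). The gene length offset moved the chemokine and cytokine median from 2.88 to 1.87. It moved the lipid-handling macrophage median from 1.70 to 1.16 and the clock median from -0.65 to -0.32. The interferon median went from 1.03 to 1.17 and the cell cycle median from 1.21 to 1.25. Of the 14 neutrophil genes 4 then stood above, not 7. Isg15 went from 3.60 to 2.10 and Mmp12 from 4.56 to 4.91.

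Of 98 named genes, 80 kept their direction in every alternative run. Genes chosen for lying outside the control range in both silica_DMSO libraries could hardly turn when 1 library was left out. For these genes the kept direction in such runs was fixed by the choice. With the replicate block over 15 libraries, which include thymus RNA, the log2 fold change turned for Marco (-0.64), S100a8 (-0.058), S100a9 (-0.60), Lcn2 (-0.47), Tgfbi (-0.22), Col3a1 (-0.82), Fn1 (-1.40), Timp1 (-0.39), Tgfb1 (0.43), Spp1 (-0.75), Il1b (-0.30), Ccl6 (-0.23), Cmpk2 (-0.26), Sftpd (-1.58) and Ltbp2 (-1.17). With the block over 12 libraries it turned for Col1a1 (1.17), Acta2 (0.25) and Tgfb1 (0.074). With 1 library left out, Col1a1 ran from -2.11 without silica_DMSO 2 to 0.63 without silica_DMSO 5 (0.13 without control 4), Tgfb1 from -0.91 to 0.028 without the same libraries, and Nlrp3 from -2.97 without silica_DMSO 2 to 3.32 without silica_DMSO 5. Fn1 turned on log2(TPM + 1) (-0.27), log2(TPM + 0.1) (-0.28) and with 15 libraries (-0.42), Ltbp2 likewise (-0.29, -0.36 and -0.31). Tgfb1 also turned with 15 libraries (0.29). The cause was not tested. With 2 silica_DMSO libraries, differences of the size seen in the matrix genes were not detectable.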

Other observations

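Genes of the cholesterol pathway and immediate early genes, described nowhere above, differed between the 2 silica_DMSO libraries. Of 18 genes of cholesterol synthesis and uptake 1 stood above in both (5.56%, near the 6.38% of all genes tested) and none below in both. Their median log2 fold change was 0.14. In silica_DMSO 2, 11 stood above, and in silica_DMSO 5, 4 above and 5 below. Of 15 immediate early genes tested 2 stood above in both and none below in both, with a median of -0.78. In silica_DMSO 2, 2 stood above and 1 below, in silica_DMSO 5, 4 above and 5 below, and their summed level was 756.2 to 3643 CPM of the library total in the controls, 1313 in silica_DMSO 2 and 477.1 in silica_DMSO 5. Of 18 genes of MHC class II and dendritic cells, which present antigen to T cells, 5 stood above and none below, with a median of 0.60, and none stood outside on the same side in both by TPM. Of 17 endothelial genes 2 stood below (Ednrb and Plvap) and none above, and of 13 fibroblast genes 3 stood below (Col13a1, Inmt and Wnt2) and 1 above (Scara5).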
